A study of Mus musculus with 17 samples.

Results

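The GADD45 genes Gadd45a, Gadd45b and Gadd45g are 3 of the 24453 gene models in the RPKM table, and all 3 symbols were found in it. They were chosen by a measured value, the lower RPKM of Gadd45g after KLA in these libraries, so the KLA values of the 3 genes are given as a description without a test. The proteins are small, acidic and nuclear. They have no enzyme activity of their own and act by binding partners, among them the kinase MTK1 (Map3k4) upstream of p38 and JNK, the cyclin-dependent kinase CDK1, the replication clamp PCNA and the cell cycle inhibitor p21 (Cdkn1a). Gadd45a is a classic p53 target that is induced by DNA damage, Gadd45b is a target of NF-κB and TGF-β signaling that can restrain JNK by binding MKK7 (Map2k7), and Gadd45g is induced by cytokines and promotes p38 signaling in T helper cells.

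The mRNA levels come from 13 polyA RNA-seq libraries of mouse macrophages. Thioglycollate elicited macrophages (TGEMs), a primary population washed from the peritoneum, were taken from C57Bl/6EiJ or Balb/cJ mice described as male and 8 weeks old. The cells were given vehicle (PBS) or the TLR4 ligand Kdo2 lipid A (KLA) for 1 h. There was 1 library for C57Bl/6EiJ vehicle, 1 for C57Bl/6EiJ KLA, 1 for Balb/cJ vehicle and 2 for Balb/cJ KLA. Immortalized bone marrow-derived macrophages (iBMDMs) came from male C57Bl/6EiJ mice, carry Myc and BRAF(V600E) from a retrovirus and express Cas9. None of the 8 iBMDM libraries was labelled as given KLA. There were 2 each for a control and for cells given guides against Atf3 (Atf3KO), Jun (JunKO) or Jund (JunDKO). The knockout titles read Veh, for vehicle. The control titles read zsGreen, and these libraries are taken here as the study's scramble control (Scramble). The 3 targeted genes encode monomers of the AP-1 transcription factor. Cells were sorted for a marker of the guide virus, which carried 2 guides per target. Nothing states that the libraries of a group came from separate mice or separately edited cultures, so the tests measure the spread between these libraries, which may be technical.

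Depths recovered from the table were 1553296 to 18444433 reads per library. The 9 macrophage markers were present in both cell types. The TGEM libraries also held markers of fibroblasts and mesothelium, at 36.4 to 73.9 summed RPKM over 5 genes with none at 0 in all libraries, and of B cells, at 10.1 to 23.9 over 4 genes. In iBMDMs these sums were at most 0.426 and 0.488. The TGEM libraries, labelled male, held 863 to 8676 reads of Xist, against at most 3 in iBMDMs. Atf3 mRNA went against the Atf3KO label, at 161.6 ± 10.4 RPKM against 79.1 ± 2.36 in Scramble (SD, n = 2 libraries each, limma adjusted p = 0.00237). Jun in JunKO (log2 difference 0.34, limma adjusted p = 0.912) and Jund in JunDKO (-0.38, limma adjusted p = 0.654) did not pass the test. Another AP-1 monomer, Jund, passed as higher in Atf3KO than in Scramble, with a log2 difference of 2.19. It was at 52.8 ± 42.7 RPKM against 8.76 ± 0.607 RPKM (SD). Jun in Atf3KO did not pass (0.65, limma adjusted p = 0.192). The part of Jund in the other Atf3KO differences was not tested. The study examined the knockouts at the protein level by western blot, which is not part of the data analysed here, and an exonic read count does not show whether a guide edited the gene, so the groups are called here by their labels, and directions given for them refer to the libraries labelled Atf3KO, JunKO or JunDKO. Atf3KO libraries had reads in 10425 and 10631 gene models, against 11884 to 12533 in the other 6 iBMDM libraries.

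In the table's mm10 annotation Gadd45a lies at chr6:67035096-67037407 on the minus strand with 1218 exonic bases, Gadd45b at chr10:80930091-80932204 on the plus strand with 1260, and Gadd45g at chr13:51846675-51848474 on the plus strand with 1074. The long noncoding RNA E230016M11Rik is transcribed from the other strand and shares 337 exonic bases with Gadd45a. The file header names no strand setting, so reads of both RNAs in those bases cannot be told apart. E230016M11Rik itself was at 0 to 2.36 RPKM in iBMDMs and 5.80 to 15.2 RPKM in TGEMs. The 250 bases before each RefSeq start (GRCm38.p6) are shown because Gadd45b and Gadd45g were low together in Atf3KO and because the knockouts target AP-1, whose binding element can be looked for there. They are written 5′ to 3′ in the direction of the gene, with the motif matches in capitals.
Gadd45a, chr6:67037408-67037657, minus strand: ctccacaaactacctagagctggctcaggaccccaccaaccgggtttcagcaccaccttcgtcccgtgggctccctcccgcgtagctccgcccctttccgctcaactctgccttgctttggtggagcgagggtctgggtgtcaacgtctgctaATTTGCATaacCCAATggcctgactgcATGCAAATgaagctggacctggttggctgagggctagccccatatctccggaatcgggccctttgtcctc
Gadd45b, chr10:80929841-80930090, plus strand: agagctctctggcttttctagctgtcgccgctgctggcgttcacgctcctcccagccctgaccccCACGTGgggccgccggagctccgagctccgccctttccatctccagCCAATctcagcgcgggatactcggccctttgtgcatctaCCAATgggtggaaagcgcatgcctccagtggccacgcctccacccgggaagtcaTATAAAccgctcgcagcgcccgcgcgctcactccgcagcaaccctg
Gadd45g, chr13:51846425-51846674, plus strand: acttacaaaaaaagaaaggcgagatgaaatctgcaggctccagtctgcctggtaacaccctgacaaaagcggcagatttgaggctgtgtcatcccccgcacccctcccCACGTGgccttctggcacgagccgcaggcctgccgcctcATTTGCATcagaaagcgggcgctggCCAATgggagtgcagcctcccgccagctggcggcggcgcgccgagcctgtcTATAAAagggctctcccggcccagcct
No window held the AP-1 element TGANTCA or the cyclic AMP response element TGACGTCA, which occur in 6.75% and 1.55% of 32851 mouse windows of this length. All 3 windows held the CCAAT box (CCAAT), found in 33.8% of windows, and Gadd45b held 2 of them. The octamer ATGCAAAT, found in 1.60% of windows, stood 2 times before Gadd45a and 1 time before Gadd45g. The E-box CACGTG (6.02% of windows) and the TATA box TATAAA (12.4%) were each present before Gadd45b and Gadd45g and absent before Gadd45a. Both strands were searched, and no matches overlapped. The windows were 59.2%, 65.2% and 62% G and C for Gadd45a, Gadd45b and Gadd45g, against a median of 52.4% over all windows. A match describes the letters and is no evidence of binding, and elements farther from the start were not searched.

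**Figure D1:**
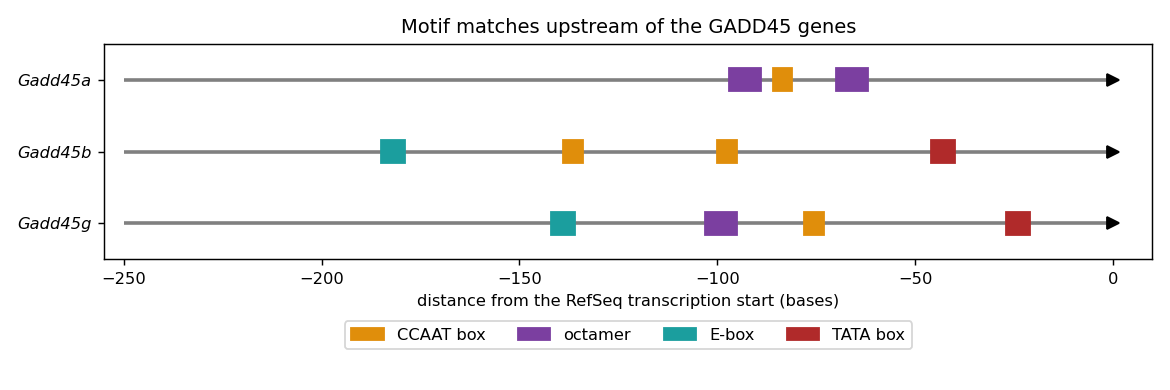
Motif matches in the 250 bases before the RefSeq start of each GADD45 gene. The horizontal axis is the distance from the start in bases, coloured boxes are matches on either strand, and the arrowheads mark the start. The E-box and the TATA box are drawn for Gadd45b and Gadd45g, while the octamer is drawn for Gadd45a and Gadd45g.

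All 3 genes were expressed far more in vehicle-treated TGEMs than in iBMDMs, and none exceeded 14.6 RPKM in any iBMDM library. Values are RPKM, reads scaled to the exonic length of the gene and the depth of the library, so levels can be compared between genes. Gadd45a was at 66.4 RPKM in C57Bl/6EiJ vehicle, 60.6 in Balb/cJ vehicle, 54.3 in C57Bl/6EiJ KLA and 34.6 and 32.3 in the Balb/cJ KLA libraries, and at 1.06 to 8.40 in the 8 iBMDM libraries. Gadd45b was at 127.0 RPKM in C57Bl/6EiJ vehicle, 65.1 in Balb/cJ vehicle, 315.9 in C57Bl/6EiJ KLA and 302.1 and 360.8 in Balb/cJ KLA, and at 0 to 14.6 in iBMDMs. For both genes every TGEM library lay above every iBMDM library, which was true of 7.71% of 10929 gene models. Gadd45g was at 71.7 RPKM in C57Bl/6EiJ vehicle, 63.6 in Balb/cJ vehicle, 19.2 in C57Bl/6EiJ KLA and 4.48 and 6.65 in Balb/cJ KLA, and at 0.212 to 6.55 in iBMDMs. Its KLA-treated Balb/cJ libraries were close to the highest iBMDM library, with the first below it and the second just above it.

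Between cells of the same strain not given KLA, vehicle C57Bl/6EiJ TGEMs and Scramble iBMDMs, the read rate was 16.4-fold higher in TGEMs for Gadd45a (95% exact counting interval 10.3 to 27.7), 12.7-fold for Gadd45b (9.46 to 17.4) and 15.6-fold for Gadd45g (9.80 to 26.4). These intervals cover counting error only, since reads carried no molecular identifiers. Cell type goes together with culture, immortalization, preparation date and the presence of Xist reads here, and these cannot be told apart. The fibroblast, mesothelial and B cell markers of the TGEM libraries moved with this difference. The summed macrophage markers were lower in TGEMs, at 8059 to 11029 RPKM against 17040 to 33226 RPKM in iBMDMs, and the summed neutrophil markers were at 0.794 to 13.4 RPKM against 0 to 41.1 RPKM. The neutrophil sum was S100a8 alone in iBMDMs, and by the mean over libraries it was mostly S100a8 in TGEMs. The part of these markers in the difference was not tested. In bulk RNA, fewer cells expressing a gene and less RNA per cell cannot be told apart.

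**Figure D2:**
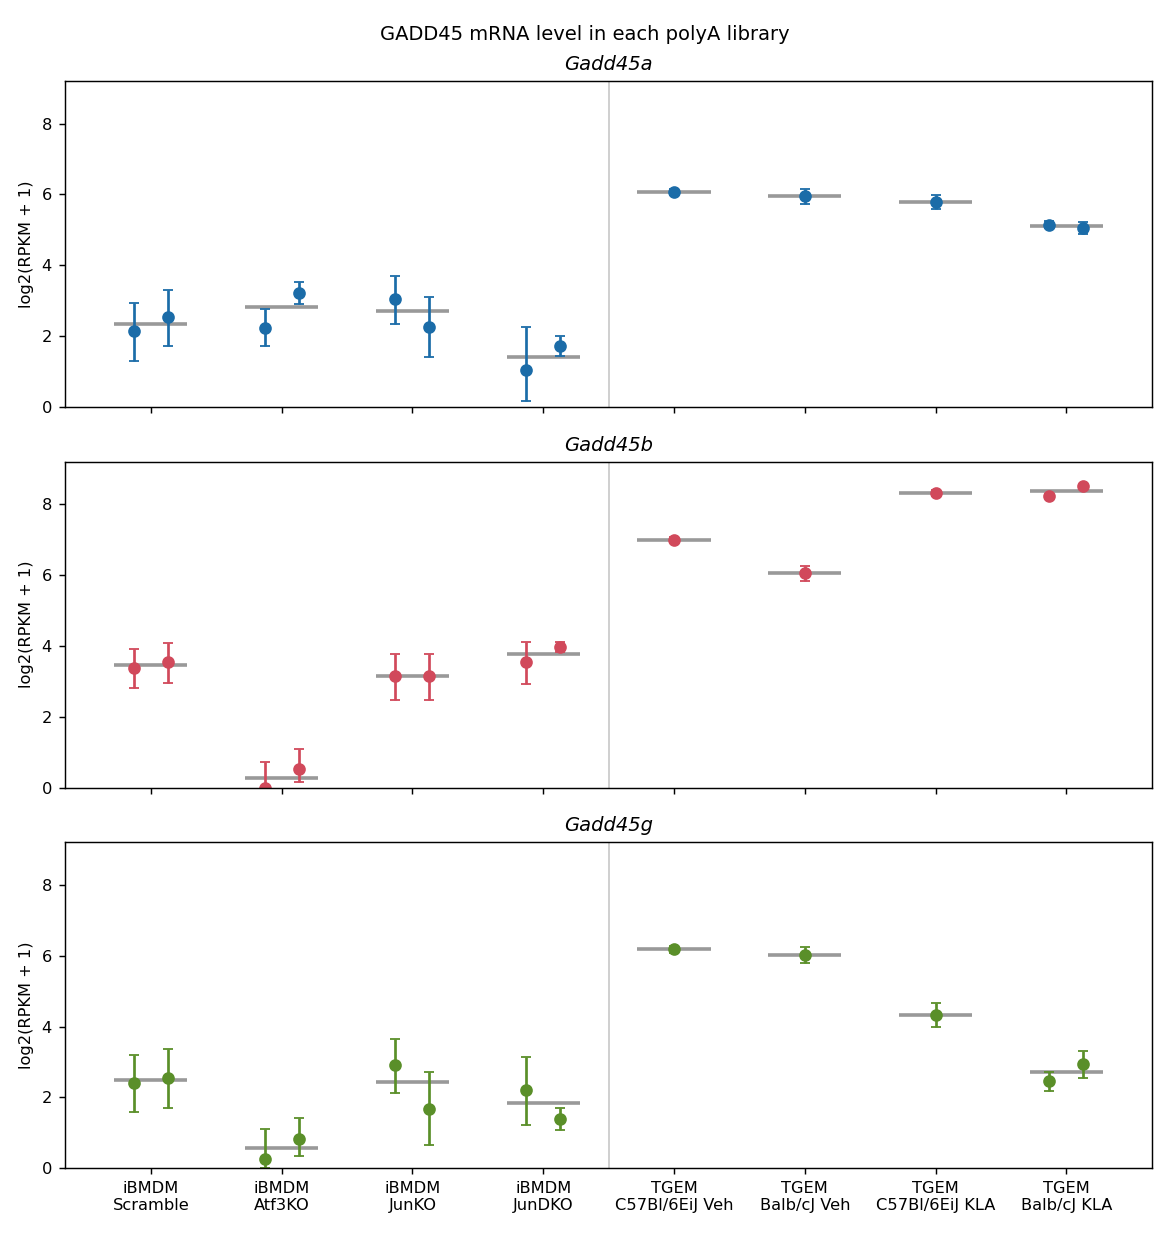
Level of each GADD45 gene as log2(RPKM + 1) on the vertical axis, with the 8 groups on the horizontal axis. Points are libraries, vertical bars are 95% exact counting intervals and grey lines mark the group's mean RPKM on the same scale. Gadd45b sits at or near 0 in both Atf3KO libraries, and Gadd45g lies lower in the KLA than in the vehicle TGEM libraries.

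The order of the groups differed between the genes. For Gadd45a it ran from C57Bl/6EiJ vehicle through Balb/cJ vehicle, C57Bl/6EiJ KLA, Balb/cJ KLA, Atf3KO, JunKO and Scramble to JunDKO, and the libraries of Atf3KO, JunKO and Scramble overlapped. For Gadd45b it ran from Balb/cJ KLA and C57Bl/6EiJ KLA, which overlapped, through C57Bl/6EiJ vehicle, Balb/cJ vehicle, JunDKO, Scramble and JunKO to Atf3KO. The lower JunDKO library was at 10.73 RPKM and the higher Scramble library at 10.665 RPKM. No pair among JunDKO, Scramble and JunKO passed the test for Gadd45b, so their order is not resolved. For Gadd45g it ran from C57Bl/6EiJ vehicle through Balb/cJ vehicle, C57Bl/6EiJ KLA, Balb/cJ KLA, Scramble, JunKO and JunDKO to Atf3KO. From Balb/cJ KLA down to JunDKO each neighbouring pair for Gadd45g overlapped, so their order is not resolved by these libraries.

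The make-up of the family differed between the groups. The 3 genes summed to 265 and 189 RPKM in the C57Bl/6EiJ and Balb/cJ vehicle TGEMs, where Gadd45b held 47.9% and 34.4%, Gadd45g 27.0% and 33.6%, and Gadd45a the rest. In the 3 KLA libraries the sum was 341 to 400 RPKM, of which Gadd45b made up 81.1% to 90.3% and Gadd45g 1.31% to 4.93%. In the Scramble libraries Gadd45b made up 55.0% and 52.4%, with Gadd45g at 25.2% and 24.0%. In Atf3KO the sum was 3.95 and 9.61 RPKM, and Gadd45a held 94.6% and 87.4% of it. Among the iBMDM groups Gadd45a had its lowest shares in JunDKO, at 6.87% and 12.5% of the sum.

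**Figure D3:**
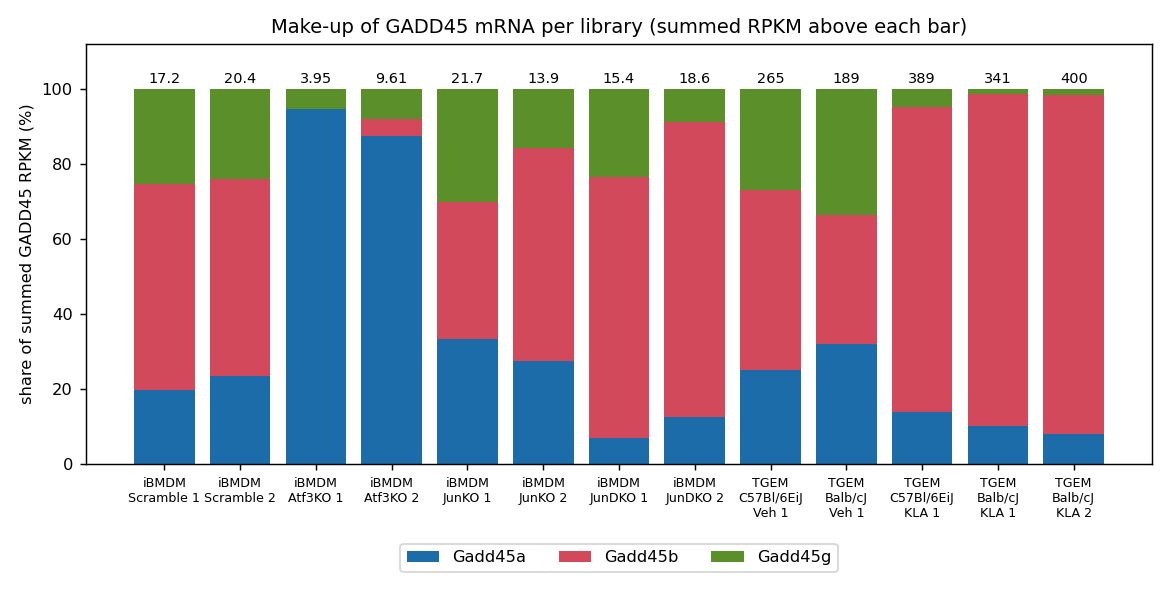
Share of each GADD45 gene in the summed RPKM of the family, in percent, for each of the 13 libraries. Numbers above the bars are the summed RPKM. Gadd45a fills most of the bar in Atf3KO, and Gadd45b fills most of it in the 3 KLA-treated TGEM libraries.

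In the libraries labelled Atf3KO, Gadd45b and Gadd45g were lower than in Scramble, while Gadd45a did not pass the test. The comparison asks which genes differ between resting cells labelled as knockouts of an AP-1 monomer and the control. Gadd45b was at 9.46 and 10.7 RPKM in Scramble (23 reads in each library) and at 0 and 0.439 RPKM in Atf3KO (0 and 4 reads). No Atf3KO library reached a Scramble library, although the Atf3KO libraries were the deeper ones, with 4397163 and 7236840 reads against 1929988 and 1711541. These deeper libraries had reads in fewer gene models, 10425 and 10631 against 12207 and 12491 in Scramble, and the part of this in the Gadd45b and Gadd45g values was not tested. In Atf3KO replicate 1 a floor of 3 reads equals 0.541 RPKM, and the 95% exact counting interval of its 0 reads reaches 0.666 RPKM. On the log2(RPKM + 1) scale, which understates the change of low genes, the difference was -3.20 ± 0.261 (SE, limma adjusted p = 2.39e-04), the 93rd lowest of 10691 tested models. Over the pooled reads, 4 in Atf3KO against 46 in Scramble, the rate was 36.7-fold lower (95% exact counting interval 13.4 to 140.5).

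Gadd45g was at 4.34 and 4.90 RPKM in Scramble (9 reads each) and at 0.212 and 0.772 RPKM in Atf3KO (1 and 6 reads). The groups did not overlap. The difference was -1.94 ± 0.462 on the log2(RPKM + 1) scale (limma adjusted p = 0.0126), and the pooled rate was 8.22-fold lower (95% exact counting interval 3.27 to 23.3). It did not pass without Atf3KO replicate 1 (limma adjusted p = 0.0631) or without Scramble replicate 2 (0.0764). Gadd45a was at 3.40 and 4.80 RPKM in Scramble (8 and 10 reads) and at 3.73 and 8.40 RPKM in Atf3KO (20 and 74 reads). Its groups overlapped, and the difference of 0.40 ± 0.425 did not pass (limma adjusted p = 0.469).

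Thus 2 of the 3 genes fell. Of all tested models 41.2% passed in this comparison and 20.6% passed in the lower direction, so the count alone does not set the family apart. Models whose Atf3KO libraries both lay below Scramble were 33.4% of those tested. Across models the log2 difference rose with the GC content of the transcript (Spearman's rho 0.50 over 10617 models), and both Gadd45b and Gadd45g are GC-rich, at 56.7% and 59.7% of their transcripts. With each library's GC trend removed the differences were -3.76 for Gadd45b (limma adjusted p = 1.11e-04) and -2.75 for Gadd45g (0.00126). Atf3KO replicate 2 carries a later date in its label than the other iBMDM libraries. Without it Gadd45b was at -3.47 (limma adjusted p = 0.00249) and Gadd45g at -2.21 (0.0391). None of the 3 genes can meet the threshold of 16 RPKM used in the study's own calls, because none reached it in iBMDMs.

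**Figure D4:**
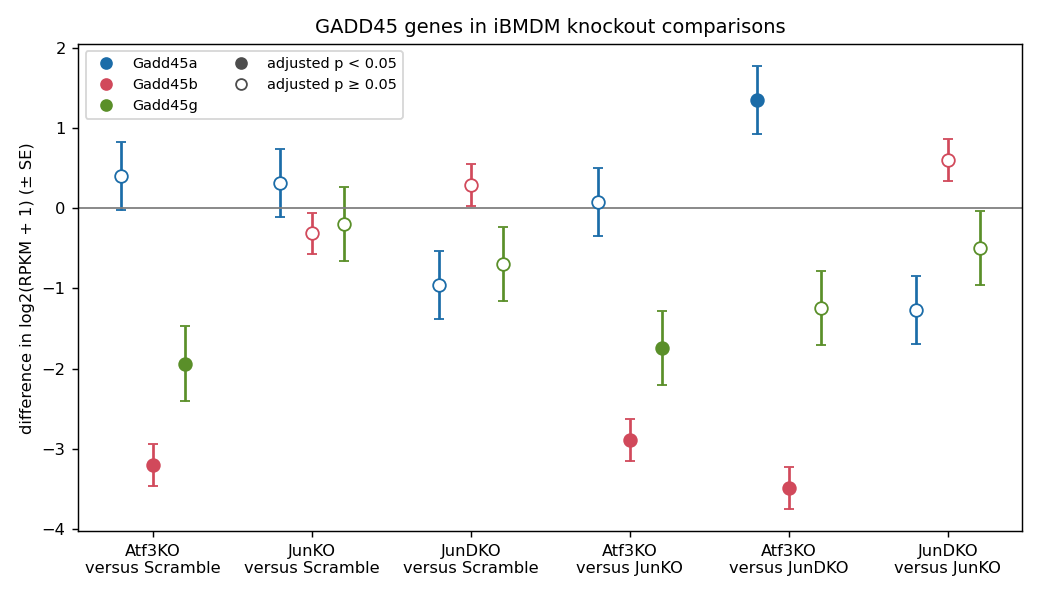
Difference in log2(RPKM + 1) for each GADD45 gene in 6 comparisons of iBMDM groups, as points with bars of 1 SE from the limma fit. Filled points have a limma adjusted p under 0.05. Gadd45b is at -3.20, -2.89 and -3.50 in the comparisons of Atf3KO with Scramble, JunKO and JunDKO.

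Against the other knockouts, Gadd45b was again lower in the Atf3KO libraries. It was at 7.91 and 7.87 RPKM in JunKO (17 reads each) and at 10.7 and 14.6 RPKM in JunDKO (21 and 340 reads). The differences of Atf3KO were -2.89 from JunKO (limma adjusted p = 4.45e-04) and -3.50 from JunDKO (limma adjusted p = 1.11e-04), in comparisons where 35.5% and 40.7% of models passed and 18.5% and 25.9% passed as lower. All 3 comparisons share the Atf3KO libraries and are not independent.

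Gadd45g was at 6.55 and 2.17 RPKM in JunKO (12 and 4 reads) and at 3.60 and 1.62 RPKM in JunDKO (6 and 32 reads). Both groups lay above the Atf3KO libraries, as they did for Gadd45b. Atf3KO libraries lay below both JunKO libraries in 32.7% of models and below both JunDKO libraries in 41.9%. Its difference passed for Atf3KO against JunKO (-1.74, limma adjusted p = 0.0223) and not against JunDKO (-1.24, limma adjusted p = 0.0617). The first call was lost without Atf3KO replicate 1, without Atf3KO replicate 2 or without JunKO replicate 1, with limma adjusted p of 0.0942, 0.0591 and 0.107.

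Gadd45a was at 7.22 and 3.83 RPKM in JunKO (15 and 8 reads) and at 1.06 and 2.32 RPKM in JunDKO (2 and 52 reads). It was lowest in JunDKO, below every other iBMDM library. The JunDKO libraries also had the lowest summed macrophage markers of the iBMDMs (17621 and 17040 RPKM, against 22457 to 33226 in the other 6 libraries). That sum was made up mostly of Lyz2. S100a8, the only neutrophil marker above 0 in any iBMDM library, was at 0 in both JunDKO libraries, against 21.8 to 41.1 RPKM in the other 6. The part of these markers in the Gadd45a values was not tested. JunDKO lay below both Scramble libraries in 16.4% of models, below both JunKO libraries in 15.9% and below both Atf3KO libraries in 29.8%. Atf3KO was above JunDKO by 1.35 (limma adjusted p = 0.0349), where 14.9% of models passed as higher, and the pooled rate was 2.99-fold higher (95% exact counting interval 2.12 to 4.26). The call was lost without Atf3KO replicate 2, JunDKO replicate 1 or JunDKO replicate 2, with limma adjusted p of 0.205, 0.199 and 0.0688. Gadd45a in JunDKO did not pass against Scramble (-0.95, limma adjusted p = 0.192) or JunKO (-1.27, limma adjusted p = 0.112).

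In JunKO against Scramble none of the 3 genes passed, with log2 differences of 0.32 for Gadd45a, -0.31 for Gadd45b and -0.20 for Gadd45g. The limma adjusted p were 0.935, 0.869 and 0.971, and 0 of 3 had an unadjusted p under 0.05 or passed in limma-voom. Of all models 0.281% passed, 7.88% had an unadjusted p under 0.05 and 0.206% passed in limma-voom. In JunDKO against Scramble 0 of 3 passed as well, with Gadd45b at 0.29 (limma adjusted p = 0.502) and Gadd45g at -0.69 (0.365), where 11.7% of models passed. Further, 0 of 3 had an unadjusted p under 0.05, against 27.5% of models, and 0 of 3 passed in limma-voom, against 12.6%. Gadd45b in both JunDKO libraries lay above both Scramble libraries, as 45.3% of models did. The median of all tested models was 0.23 in this comparison. With the libraries set to equal medians Gadd45b was at 0.02, Gadd45a at -1.23 and Gadd45g at -0.97. Between JunDKO and JunKO 0 of 3 passed, where 8.14% of models did. An unadjusted p under 0.05 was found for 2 of 3, Gadd45a and Gadd45b, and for 24.9% of models, and 0 of 3 passed in limma-voom, where 9.27% of models did.

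Under other settings the 2 genes that were low in Atf3KO behaved differently. The call on Gadd45b held in all 13 alternatives, with log2 differences of -5.45 to -1.53 and limma adjusted p of 1.11e-04 to 0.00524. The call on Gadd45g held in 11 of 13, with log2 differences of -3.17 to -0.81.

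**Figure D5:**
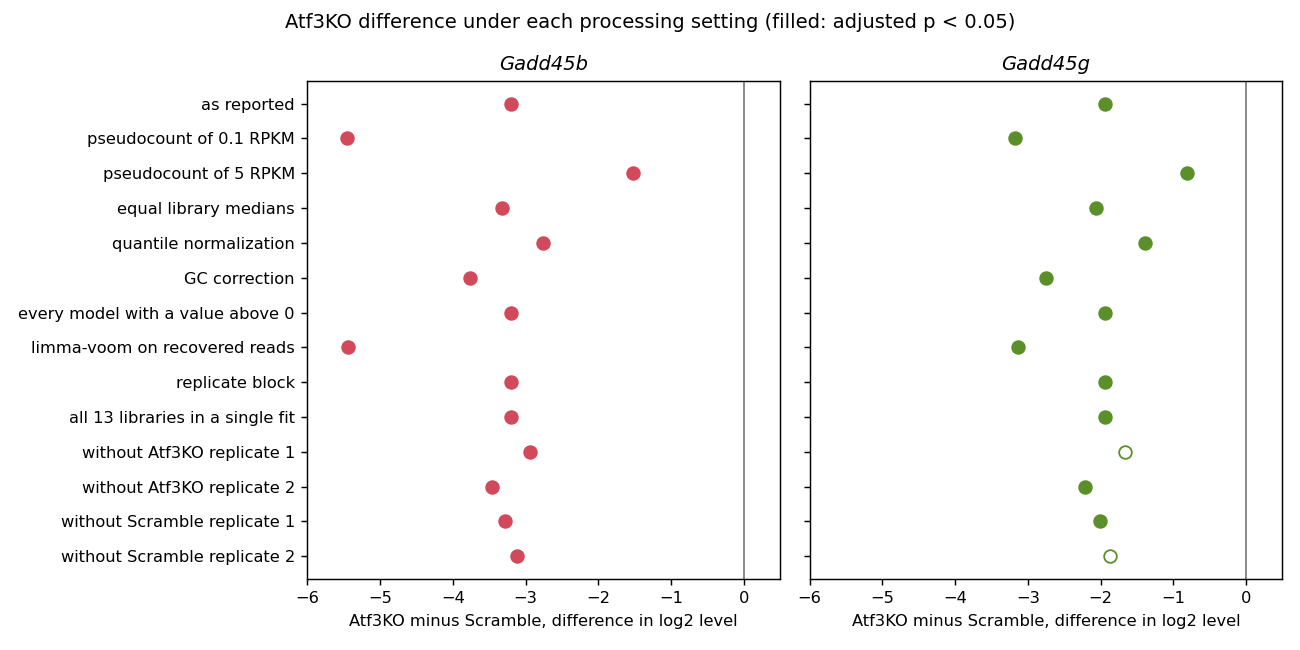
Difference in log2 level between Atf3KO and Scramble on the horizontal axis, for Gadd45b and Gadd45g, under the reported fit and 13 alternatives. Filled points have an adjusted p under 0.05. Gadd45b is filled in every row, and Gadd45g is open in the rows without Atf3KO replicate 1 and without Scramble replicate 2.

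After 1 h of KLA, Gadd45b was higher and Gadd45a and Gadd45g were lower than in vehicle in both strains. In C57Bl/6EiJ, Gadd45b went from 127.0 to 315.9 RPKM, a read rate 2.49-fold higher (95% exact counting interval 2.31 to 2.67). In Balb/cJ it went from 65.1 to 302.1 and 360.8 RPKM, 4.89-fold higher (4.24 to 5.67). Every KLA library lay above both vehicle libraries. The fitted log2 difference, with strain in the model, was 1.89, and 167 of 10357 models were at or above it.

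Gadd45g went from 71.7 to 19.2 RPKM in C57Bl/6EiJ (878 and 67 reads), a read rate 3.74-fold lower (95% exact counting interval 2.91 to 4.87). In Balb/cJ it went from 63.6 to 4.48 and 6.65 RPKM (160, 83 and 47 reads), 12.5-fold lower (9.87 to 15.9). No KLA library reached a vehicle library. The fitted log2 difference was -2.69, and 7 models were at or below it. This is the value for which the family was picked, so nothing is read from its rank, its counting intervals or its lack of overlap.

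Gadd45a went from 66.4 to 54.3 RPKM in C57Bl/6EiJ (read rate 1.22-fold lower, 95% exact counting interval 1.05 to 1.43) and from 60.6 to 34.6 and 32.3 RPKM in Balb/cJ (1.79-fold lower, 1.51 to 2.10). Its fitted log2 difference was -0.60, beside a median of -0.15 over all models. With equal library medians it was -0.47. Models lower with KLA in both strains were 34.8% of those tested, and models higher in both were 14%. Without overlap between treatments 18% of models were lower and 5.74% higher, and 1.53% of models passed. The C57Bl/6EiJ libraries share a label date, and so do Balb/cJ vehicle and Balb/cJ KLA replicate 1. Within these pairs the directions of the 3 genes were those given above. The responses were larger in Balb/cJ for all 3 genes, but each strain had 1 vehicle library and the difference between strains was not tested. Fibroblast and mesothelial markers summed to 52.9 and 73.9 RPKM in vehicle and to 45.3, 64.6 and 36.4 RPKM with KLA, with every KLA library below the vehicle library of its own strain. Neutrophil markers, of which 2 of 5 were at 0 in all TGEM libraries, summed to 0.794 to 13.4 RPKM and were likewise lower in each KLA library than in its strain's vehicle. By the mean over libraries the neutrophil sum was mostly the single gene S100a8. These sums moved in the direction of Gadd45a and Gadd45g, and their part in the KLA values was not tested. B cell markers were at 14.5 and 10.1 RPKM in vehicle against 10.4, 11.9 and 23.9 RPKM with KLA, lower in C57Bl/6EiJ and higher in Balb/cJ.

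Strain was not used in picking the genes and was tested with treatment in the model. None of the 3 genes passed, where 2.31% of models did. The Balb/cJ difference was -0.45 ± 0.267 for Gadd45a (limma adjusted p = 0.372), -0.37 ± 0.318 for Gadd45b (0.525) and -1.01 ± 0.377 for Gadd45g (0.187). The Gadd45g value rested on few libraries, at -0.17 without C57Bl/6EiJ KLA and -1.64 without either vehicle library. Without C57Bl/6EiJ KLA the values of Gadd45a and Gadd45b were -0.13 and -0.95, and without either vehicle library -0.68 and 0.063. With GC correction Gadd45g was at -0.50 and Gadd45b at -0.0089. An unadjusted p under 0.05 was found for 1 of 3, Gadd45g, and for 21.4% of models, and 0 of 3 passed in limma-voom, where 6.14% of models did. In vehicle the Gadd45b level of Balb/cJ was below that of C57Bl/6EiJ, at 65.1 against 127.0 RPKM, while with KLA the strains overlapped. For Gadd45g the vehicle libraries were at 63.6 and 71.7 RPKM, and with KLA the Balb/cJ libraries at 4.48 and 6.65 RPKM lay below the C57Bl/6EiJ library at 19.2. Strain and label date cannot be told apart.

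The genes of 5 lists around the family were counted in the same fits. Of all models 20.7% passed as higher and 20.6% as lower in Atf3KO against Scramble, 6.93% and 4.82% in JunDKO against Scramble, and 1.29% and 0.232% with KLA, and the medians of all models were 0.05, 0.23 and -0.15. Of the GADD45 partners and downstream kinases, 3 of 13 tested genes were higher and 2 lower in Atf3KO than in Scramble. Ccnb1, the cyclin of CDK1 at the entry into mitosis, rose by 1.43, Gadd45gip1, whose product binds GADD45 proteins and serves in mitochondrial translation, rose by 1.12, and Mapk9, the kinase JNK2, and Pcna fell by 0.91 and 0.80. In JunDKO 3 rose and 2 fell, with Ccnb1 at 1.85, Cdk1 at 1.14, Cdkn1a at -1.26 and Mapk9 at -0.75. With KLA 1 of 11 passed, Cdkn1a, which rose by 2.39 from 42.2 to 232.3 RPKM. The list's medians were 0.02, 0.04 and -0.12 in the 3 comparisons.

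Of the p53 target genes, 5 of 19 rose and 6 fell in Atf3KO. Bbc3, which encodes the death-promoting protein PUMA, rose by 2.75, from 4.44 to 41.1 RPKM, and Phlda3 by 1.89. Pmaip1, which encodes the related protein NOXA, fell by 2.25 and Plk2, a polo-like kinase, by 1.97. The list's median was -0.12 beside 0.05 over all models. In JunDKO 1 rose, Sesn1 at 2.30, and 5 fell, among them the death receptor genes Fas at -2.62 and Eda2r at -1.61. With KLA 3 of 18 rose and none fell, with Btg2, an antiproliferative gene, at 2.96. Its medians were -0.26 in JunDKO and -0.02 with KLA.

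Of the integrated stress response genes, a list of Atf4 and genes of the pathways around it, 5 of 12 rose and 1 fell in Atf3KO. Ddit4, an inhibitor of mTORC1, rose by 2.40 and Phgdh, an enzyme of serine synthesis, by 1.73, while the cystine transporter gene Slc7a11 fell by 3.28. In JunDKO 2 rose and 3 fell, with Asns at 1.29, Psat1 at 0.87, Slc7a11 at -5.42 and Ddit4 at -1.55. With KLA 1 of 10 passed, Ppp1r15a, also known as Gadd34, a subunit of the phosphatase that reverses the response and no member of the GADD45 family, which rose by 3.41. The list's medians were 0.57, -0.20 and 0.08.

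Of the transcription factors known to act on GADD45 genes, 5 of 15 rose and 1 fell in Atf3KO. Foxo3 rose by 1.48 and Foxo4 by 0.88. Rel, which encodes the NF-κB subunit c-Rel, had 0 reads in both Atf3KO libraries against 54 in Scramble, at least 57.5-fold lower with 3 reads as the floor over the group (limma adjusted p = 5.46e-04). In JunDKO 1 rose, Foxo4 at 1.05. With KLA 3 of 14 rose, with Egr1 at 5.76 and Myc at 2.48. The list's medians were 0.67, 0.34 and 0.10.

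Of the early TLR4 response genes, 10 of 10 rose with KLA, with Il1b at 7.70 and Cxcl2 at 7.55. In Atf3KO 4 of 10 fell and none rose, with Ptgs2 at -2.74 and Cxcl2 at -2.61 from 6.02 and 6.29 RPKM in Scramble. In JunDKO 1 rose, Zfp36 at 1.15, and 4 fell, with Ptgs2 at -1.85 and Tnfaip3 at -1.69. The list's medians were -0.46, -0.80 and 5.00. Of the 65 tested genes of the 5 lists 0 passed in JunKO (limma), where 9 had an unadjusted p under 0.05 beside 7.88% of all models and 1 passed in limma-voom beside 0.206%. Of 59 tested in TGEMs 0 passed between strains (limma), where 9 had an unadjusted p under 0.05 beside 21.4% of all models and 5 passed in limma-voom beside 6.14%.

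The genes with the most similar pattern over the 13 libraries were found by Pearson's r of log2(RPKM + 1), as a description without a test. For Gadd45a they were Bhlhe40 (r = 0.979), Vat1 (0.973), Evl (0.973) and Tnfsf12 (0.972). For Gadd45b they were Tollip (0.979), Ankrd33b (0.970), Plk2 (0.968) and Adrbk2 (0.966). For Gadd45g the likeness was weaker, with Fchsd1 (0.925), Prokr1 (0.923), 3110062M04Rik (0.889) and Fam102a (0.886). Bhlhe40 ranged over 37.1 to 94.0 RPKM in TGEMs and 4.77 to 14.4 in iBMDMs, and Tollip over 44.8 to 68.0 and 10.4 to 26.3 RPKM. The 13 libraries fall into the 2 cell types, and with each cell type's mean subtracted 0 of the 4 genes remained among the closest 4 for any of the 3. Among themselves the genes had r of 0.758 (Gadd45a and Gadd45b), 0.769 (Gadd45a and Gadd45g) and 0.676 (Gadd45b and Gadd45g) over the 13 libraries.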

How the data were processed

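Poly-A RNA-seq of 13 libraries was used here, and 4 GRO-seq samples were not analysed here. The authors aligned reads with STAR to mm10, or to a custom Balb/cJ genome, and deposited RPKM per gene model, counted over exons with HOMER per the file headers (tool versions are not given in the sources used here). Column titles read FPKM. Low values moved in steps of 1 read, which gave each library's depth and whole reads (100% of values up to 50 reads lay within 0.05 of a whole number).

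log2(RPKM + 1) was fitted with limma 3.58.1 (R 4.3.3, limma-trend, Benjamini-Hochberg over all models tested, two-sided) on models averaging 1 RPKM or more: 10691 in the 8 iBMDM libraries, by group, and 10357 in the 5 TGEM libraries, by strain and treatment. Passing means an adjusted p under 0.05. The fits have 4 and 2 residual degrees of freedom. Counting intervals are exact and cover counting error only. The fits were tested on simulated data. Alternatives were limma-voom on the recovered reads, pseudocounts of 0.1 and 5 RPKM, equal medians, quantile normalization, GC correction, no filter, a replicate block, a fit of all 13 libraries and leaving out each library.

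The members, gene lists and tests were chosen with earlier results of these data known. The text names the 3 genes, the targeted genes, up to 2 genes per list, comparison and direction with the largest passing difference, and the 4 models of at least 200 exonic bases most like each member by r. Motifs were searched by Python 3.11.15 in RefSeq promoter sequence of GRCm38.p6.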

Additional observations from a re-analysis of the deposited data

How the results depend on the processing

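Gadd45b in Atf3KO kept its direction and call against Scramble, JunKO and JunDKO in 13 of 13 alternatives each. Replicate numbers are shared between iBMDM groups, and the correlations of their deviations were 0.185 to 0.225 among Scramble, JunKO and JunDKO and -0.215 to -0.12 for Atf3KO with each of them. Since not every pair was positive, and nothing in the labels ties the numbers to a shared culture, the numbers were not taken to pair the libraries. With the replicate block Gadd45b in Atf3KO against Scramble stayed at -3.20 (limma adjusted p = 6.70e-04) and no call on the 3 genes changed. Gadd45g in Atf3KO against JunKO missed the threshold under quantile normalization (-1.14, limma adjusted p = 0.0895), and Gadd45a in Atf3KO against JunDKO did so with every model tested (1.35, 0.0717). Gadd45g in Atf3KO against JunDKO passed with a pseudocount of 0.1 RPKM (-2.27, 0.0328) and with GC correction (-1.76, 0.00721). Gadd45a in Atf3KO against JunKO was at -0.0090 with equal medians. The cause of these changes was not tested.

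Leaving out each library gave -0.094 to 0.89 (Gadd45a), -3.47 to -2.94 (Gadd45b) and -2.21 to -1.66 (Gadd45g) for Atf3KO against Scramble, -0.41 to 0.58 (Gadd45a) and -2.37 to -1.11 (Gadd45g) for Atf3KO against JunKO, and 0.86 to 1.85 (Gadd45a) against JunDKO. Ranges were -0.064 to 0.70 (Gadd45a) and -0.82 to 0.43 (Gadd45g) for JunKO against Scramble, -1.12 to 0.13 (Gadd45g) for JunDKO against JunKO, and -0.68 to -0.13 (Gadd45a), -0.95 to 0.063 (Gadd45b) and -1.64 to -0.17 (Gadd45g) for strain. For JunDKO against Scramble they were -1.30 to -0.61 (Gadd45a), 0.087 to 0.50 (Gadd45b) and -1.10 to -0.29 (Gadd45g). Signs turned without Atf3KO replicate 2, JunKO replicate 1 or 2, or either vehicle TGEM library, in results that had not passed. For KLA the ranges were -0.84 to -0.29 (Gadd45a), 1.31 to 2.33 (Gadd45b) and -3.32 to -1.85 (Gadd45g), whose ends are the values of C57Bl/6EiJ alone (-0.29, 1.31, -1.85) and Balb/cJ alone (-0.84, 2.33, -3.32).

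Of the genes in the 5 lists, 65 were tested in iBMDMs and 59 in TGEMs, and 30 passed for Atf3KO against Scramble, 0 for JunKO, 21 for JunDKO, 32 for Atf3KO against JunKO, 34 for Atf3KO against JunDKO, 14 for JunDKO against JunKO, 0 for strain and 16 for KLA. Without 1 library these were 16 to 33, 0, 8 to 14, 12 to 29, 20 to 31, 3 to 7, 0 and 7 to 15. Over all models the counts moved too, from 4409 to between 2087 and 4432 for Atf3KO against Scramble, from 1256 to between 409 and 583 for JunDKO, from 3792 to between 1544 and 3817 for Atf3KO against JunKO, from 4355 to between 2147 and 4393 for Atf3KO against JunDKO, from 870 to between 228 and 400 for JunDKO against JunKO and from 158 to between 28 and 149 for KLA. Without both Atf3KO libraries the counts for JunDKO were 23 against Scramble and 19 against JunKO. Moves of over 1.5 times came without Scramble replicate 2 (16 for Atf3KO and 8 for JunDKO), without either JunDKO library (9 and 9 against Scramble, 5 and 3 against JunKO, and 20 for Atf3KO against JunDKO without replicate 2), without JunKO replicates 1 and 2 (20 and 12 for Atf3KO, 7 and 6 for JunDKO), without Atf3KO replicate 2 (18 against JunKO) and without Balb/cJ vehicle (7 for KLA). With the study's thresholds they were 13, 10, 10, 15 and 9 for Atf3KO against Scramble, JunDKO against Scramble, Atf3KO against JunKO, Atf3KO against JunDKO and JunDKO against JunKO. JunKO gave 1 with a pseudocount of 5 RPKM, 2 with GC correction and 1 with limma-voom, JunDKO against JunKO gave 23 with GC correction, strain gave 5 with limma-voom and 6 in the fit of all 13 libraries, and KLA gave 9 with every model. Read counts of 0 to 74 for Gadd45a, Gadd45b or Gadd45g in iBMDM libraries other than JunDKO replicate 2 limit what a small change could show.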
